A study of Mus musculus with 4 samples.

Results

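The proteasome and immunoproteasome genes were followed in gBT-I cells, CD8+ T cells with a transgenic receptor for the gB498-505 peptide of herpes simplex virus, after transfer into SPF or GF mice. The genes were all those whose symbol in the deposited count table begins with Psm, a letter from a to g and a digit, with pseudogenes (-ps) left out. The rule found 50 genes of 24062, and 48 of them passed the filter on low counts and were tested, of 11271 genes tested in all. One match, Psmc3ip, is not a proteasome gene and is described apart. Splenocytes of gBT-I tg mice kept SPF (specific pathogen free) were stimulated in culture with the peptide and LPS. They received IL-1, as the labels spell it, on days 2 and 3. On day 4 the cells were injected into a vein of C57BL/6 recipients kept SPF or GF (germ free). Both groups thus share the kind of donor mouse, the culture steps and the recipient strain. On day 7 after transfer the gBT-I cells were sorted from the spleen and sequenced, with 2 libraries of SPF and 2 of GF recipients. The labels do not say whether a library came from a single mouse or a pool, so p-values measure the spread between these libraries.

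The proteasome is the barrel-shaped protease that degrades ubiquitin-tagged proteins in the cytosol and nucleus. Its core particle is built of rings of alpha subunits, which gate the entry, and of beta subunits, some of which cut peptides. A cap (the regulatory particle) with an ATPase ring binds, unfolds and feeds in the tagged protein, and assembly chaperones help to build both parts. In lymphocytes the catalytic beta subunits can be replaced by those of the immunoproteasome, which are induced by interferon-gamma and alter the peptides offered to MHC class I. Other rings, the activators encoded by the Psme genes, can take the place of the cap.

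Total counts ranged from 11544960 to 14431533 per library. SPF replicate 1 stood apart among these genes: it held the highest value for 41 of the 48 tested, against 38.3% of all tested genes. GF replicate 2 held the lowest for 41, against 31.3%. These shares are over tested genes of all lengths and are not matched for length. Counts of the 48 genes differed between replicates by more than sampling noise, with a chi-square per degree of freedom of 155 in SPF and 65.5 in GF. Over all 11271 tested genes it was 92.2 in SPF and 46.5 in GF. Each library was counted once, and these values cannot tell whether the libraries came from separate mice. All 8 CD8 T cell markers listed, among them Cd3e and Cd8a, were tested, and their summed level ranged from 5256 to 6974 CPM (counts per 1000000 of the library size after TMM scaling) in SPF and from 5353 to 5845 CPM in GF. Markers of B cells, 13 of 14 tested, summed to 121.5 and 28.9 CPM in SPF and 145 and 31.8 CPM in GF replicates 1 and 2. Markers of macrophages, monocytes and neutrophils summed to 1360 and 875 CPM in SPF and 1024 and 689 CPM in GF. That list has 5 of 12 tested and is led by Ly6c2, which T cells also express, and its Mpo and Elane were at 0. NK cell markers, 6 of 9 tested and led by Klrk1, which CD8 T cells also express, summed to 2012 and 1499 CPM in SPF and 1442 and 1464 CPM in GF, with Klra4 and Klra8 at 0. Dendritic cell markers, 3 of 8 tested and led by Itgax, which activated T cells also express, summed to 401 and 705 CPM in SPF and 761 and 1020 CPM in GF. CD4 and regulatory T cell markers, 2 of 4 tested and led by Zbtb7b, summed to 100.02 and 108 CPM in SPF and 66.4 and 89.2 CPM in GF. The 6 red cell globin genes had 0 counts in every library. The part of these markers in the results below was not tested.

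Most proteasome genes had lower values in cells from GF recipients, but no difference passed the test. Of the 48 tested genes, 44 had a lower fitted value in GF, against 50.3% of all tested genes, and 4 a higher one. Their median log2 fold change (GF over SPF) was -0.35, against -0.00 over all tested genes. The median transcript length of the 48 was 1367 nt. Short genes were more often lower in GF, at 77.3% of all tested genes under 1000 nt and 75.1% from 1000 to 1500 nt. The GF libraries were both lower than either SPF library for 9 of the 48 genes, as was the case for 16.4% of all tested genes, and both higher for 0, against 16.8%. The 9 are Psma3, Psmb5, Psmc3, Psmc6, Psmd5, Psmd7, Psmd11, Psmg3 and Psmc3ip, a share near the background.

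No member passed edgeR's quasi-likelihood test after Benjamini-Hochberg adjustment over all genes, and neither did any other gene (0% called, smallest adjusted p = 0.86). At an unadjusted p under 0.05 the same test had 363 of 11271 genes (3.22%) and 1 member, Psmc3ip. DESeq2 called 9 genes (0.0862% of those it adjusted) and 0 members. With 2 libraries a side, the smallest two-sided p of an exact permutation test is 0.33. The size of the difference depended on which libraries entered. When SPF replicate 1 was left out, the median of the tested genes was -0.02 and 27 had a lower fitted value in GF. Without SPF replicate 2 the median was -0.60, and edgeR's quasi-likelihood test called 8 members among 1327 genes (11.5% of the 11574 tested then). Of these, Psmb2, Psmb5, Psmb6, Psmb10, Psmd10, Psme2 and Psmg4 were lower in GF and Psme2b was higher. With GF replicate 1 or 2 left out it was -0.52 or -0.19. With a lone library in a group, that library is taken to vary like those of the other group.

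The ranking of the libraries was shared by most genes of the complex. For 32 of 48 the order was SPF replicate 1, GF replicate 1, SPF replicate 2, GF replicate 2 from high to low. That order was held by 17.7% of all tested genes, a share not matched for length. The 50 genes together took 0.704% of all counts in SPF replicate 1 (95% Wilson interval 0.700 to 0.709%) and 0.489% in SPF replicate 2 (0.486 to 0.493%). They took 0.542% in GF replicate 1 (0.538 to 0.546%) and 0.417% in GF replicate 2 (0.414 to 0.421%). These intervals cover counting error only. The libraries of a group were thus further apart than the group means, and the groups overlapped. In bulk samples, fewer cells with a transcript and less of it per cell cannot be told apart.

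**Figure D1:**
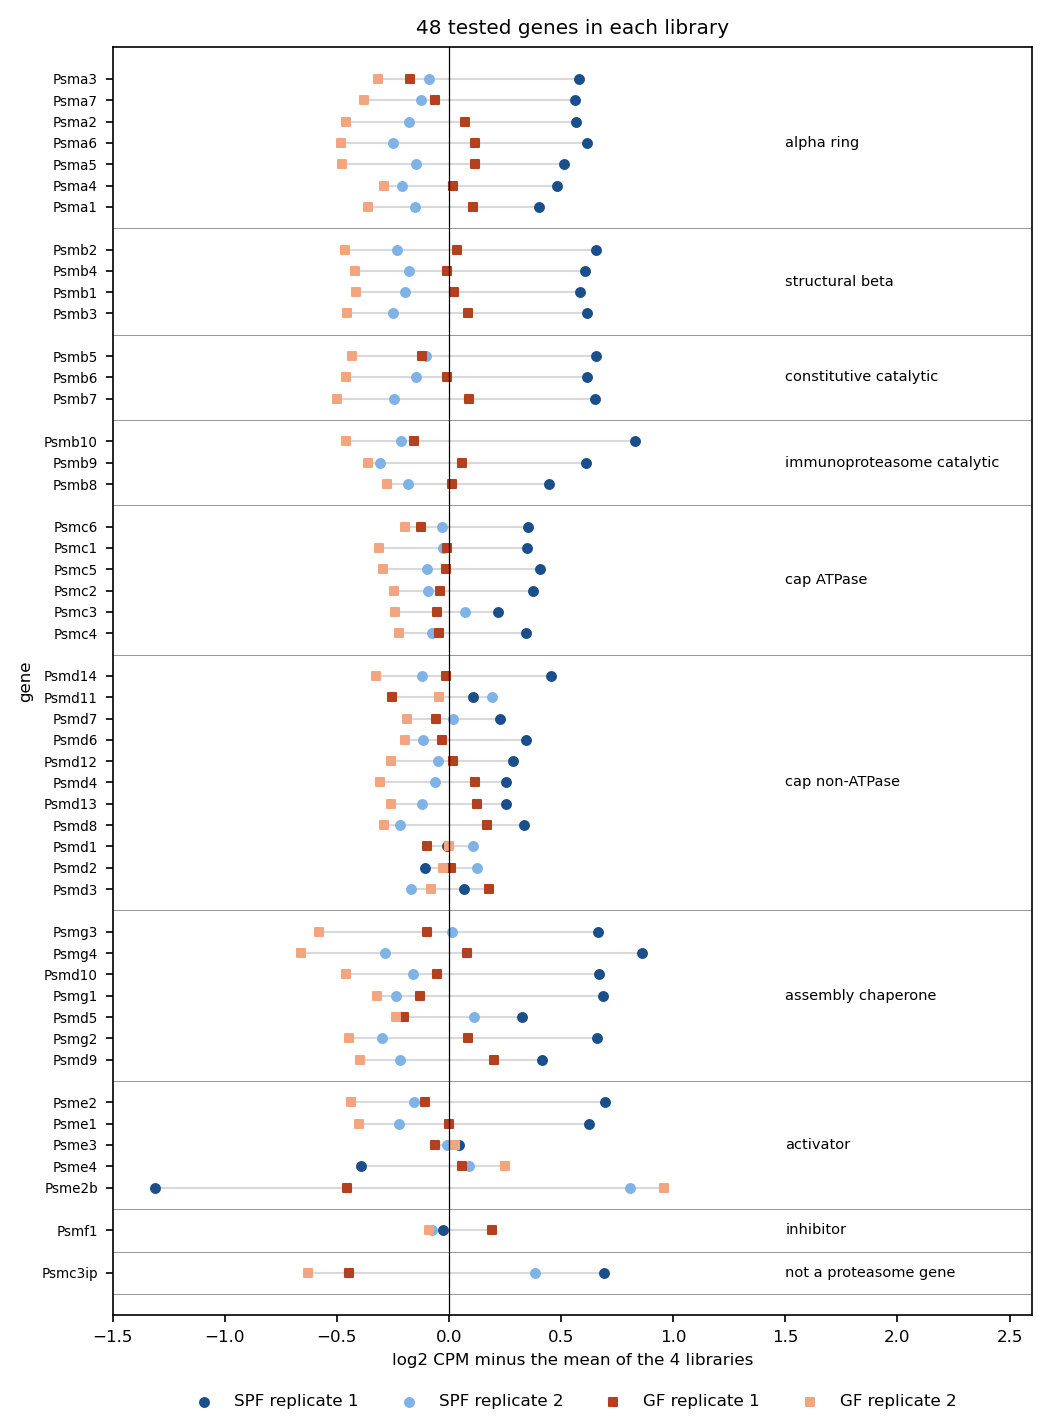
Log2 CPM of each of the 48 tested genes in each of the 4 libraries, minus the gene's mean over the libraries; 1 row per gene, grouped by class, with circles for SPF and squares for GF replicates. The dark circles of SPF replicate 1 lie furthest to the right for 41 of 48 genes, and Psme4 and Psme2b run the other way.

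The 7 tested alpha ring genes, which form the gate of the core, all had lower fitted values in GF, with log2 fold changes from -0.53 to -0.26 and a median of -0.40. Psma7 had the highest level per length of the ring, with a mean of 131 CPM per kb of transcript over the 4 libraries. It measured 195 and 121 CPM in SPF replicates 1 and 2 and 126 and 101 CPM in GF replicates 1 and 2, a log2 fold change of -0.47 (SE 0.30). Its groups overlapped, since GF replicate 1 lay above SPF replicate 2. Psma3 measured 209.8 and 132 CPM in SPF and 124 and 113 CPM in GF, and was the ring's largest difference at -0.53 (SE 0.28). It was the one ring gene with no overlap between the groups. Psma1 was the smallest difference at -0.26 (SE 0.29), with 149 and 102 CPM in SPF and 122 and 88.2 CPM in GF. Levels per length spanned 2.53-fold among the 7 genes, from 51.9 to 131 CPM per kb. This span depends on the annotated lengths. The lowest was Psma2, which has the longest transcript of the ring (2911 nt) and its highest mean CPM in SPF (172). With SPF replicate 1 left out, the median of the ring was 0.01, and Psma1 had 0.04.

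The 4 genes of the beta subunits that do not cut, Psmb1 to Psmb4, were also all lower in fitted value, with a median of -0.45 and a narrow range of -0.47 to -0.40. Psmb3 had the highest level per length of this class, 179 CPM per kb, and measured 201 and 111 CPM in SPF and 139.6 and 96.0 CPM in GF. Its log2 fold change was -0.40 (SE 0.37). Psmb2 had the lowest fold change of the class, at -0.47 (SE 0.37), from 121 and 65.4 CPM in SPF and 78.9 and 55.8 CPM in GF. Psmb4 measured 229.9 and 133 CPM in SPF and 149.8 and 113 CPM in GF, also -0.47 (SE 0.33). For all 4 genes GF replicate 1 lay between the SPF libraries and GF replicate 2 lay lowest. The class median was 0.03 without SPF replicate 1, with 0.09 for Psmb3 and 0.04 for Psmb2.

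Each catalytic site of the core has a constitutive gene and an immunoproteasome counterpart. Psmb5 and Psmb8 carry the chymotrypsin-like activity, Psmb6 and Psmb9 take the place of the caspase-like subunit, and Psmb7 and Psmb10 that of the trypsin-like subunit. Per length of transcript the immunoproteasome genes stood at mean levels of 230.4 (Psmb8), 143 (Psmb10) and 96.2 CPM per kb (Psmb9). Their constitutive counterparts stood at 97.6 (Psmb5), 75.5 (Psmb7) and 110.3 CPM per kb (Psmb6). Psmb8 and Psmb10 thus exceeded their counterparts in all 4 libraries, and Psmb9 did not.

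All 6 catalytic genes had lower fitted values in GF, and none passed the test. Psmb8, on chromosome 17 of mm10 from 34197721 to 34201454 in the MHC, measured 501 and 324 CPM in SPF and 371 and 304 CPM in GF, a log2 fold change of -0.29 (SE 0.29). Psmb9 on the same chromosome, from 34181987 to 34187764, measured 191 and 101 CPM in SPF and 130.2 and 97.5 CPM in GF, or -0.36 (SE 0.36). Psmb10, on chromosome 8 from 105935735 to 105938444, measured 313 and 152 CPM in SPF and 158 and 128 CPM in GF. Its log2 fold change of -0.70 (SE 0.38) was the lowest of all proteasome genes, and its groups overlapped by a margin of 158 against 152 CPM.

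Psmb5, on chromosome 14 from 54614119 to 54618022, measured 112 and 66.3 CPM in SPF and 65.6 and 52.7 CPM in GF, or -0.59 (SE 0.32). It was the one catalytic gene whose groups did not overlap, and its upper GF and lower SPF values were almost equal. Psmb6 measured 129.9 and 76.4 CPM in SPF and 84.1 and 61.6 CPM in GF, or -0.50 (SE 0.33). Psmb7 measured 131 and 70.6 CPM in SPF and 89.1 and 59.3 CPM in GF, or -0.45 (SE 0.38). Leaving out SPF replicate 1 gave 0.06 for Psmb8, 0.17 for Psmb9, 0.07 for Psmb7, -0.07 for Psmb6, -0.16 for Psmb5 and -0.08 for Psmb10. Reads counted for Psmb7 can include those of Nek6, whose exons on the opposite strand cover 11.8% of those of Psmb7, since the library kit does not mark strand. Nek6 measured at most 1.75 CPM.

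The balance between immunoproteasome and constitutive transcripts stood slightly higher in GF in the main setting, but its sign turned with the length trend removed. The ratio of the summed levels per length, Psmb8 to Psmb10 over Psmb5 to Psmb7, was 1.62 and 1.60 in SPF and 1.66 and 1.80 in GF. The log2 difference was 0.10, with a pooled SD of 0.062 between replicates, and it was 0.04 without GF replicate 2 and 0.16 without GF replicate 1. The ratio of Psmb8 to Psmb5 was 2.09 and 2.29 in SPF and 2.64 and 2.69 in GF, a log2 difference of 0.29 (pooled SD 0.067). That of Psmb9 to Psmb6 was 0.869 and 0.782 in SPF and 0.914 and 0.934 in GF, a log2 difference of 0.16 (pooled SD 0.078). The groups did not overlap for the summed ratio and for these 2 pairs, with GF above. The ratio of Psmb10 to Psmb7 went the other way, at 2.10 and 1.90 in SPF and 1.57 and 1.91 in GF, with overlap. These ratios do not depend on the scaling of a library, but they depend on transcript length. With the trend of each library on transcript length removed, the summed ratio had a log2 difference of -0.03. The groups then overlapped for the summed ratio, for Psmb8 over Psmb5 and for Psmb9 over Psmb6. For Psmb10 over Psmb7 the groups then did not overlap, with GF at 1.57 and 1.86 against 2.18 and 1.87.

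**Figure D2:**
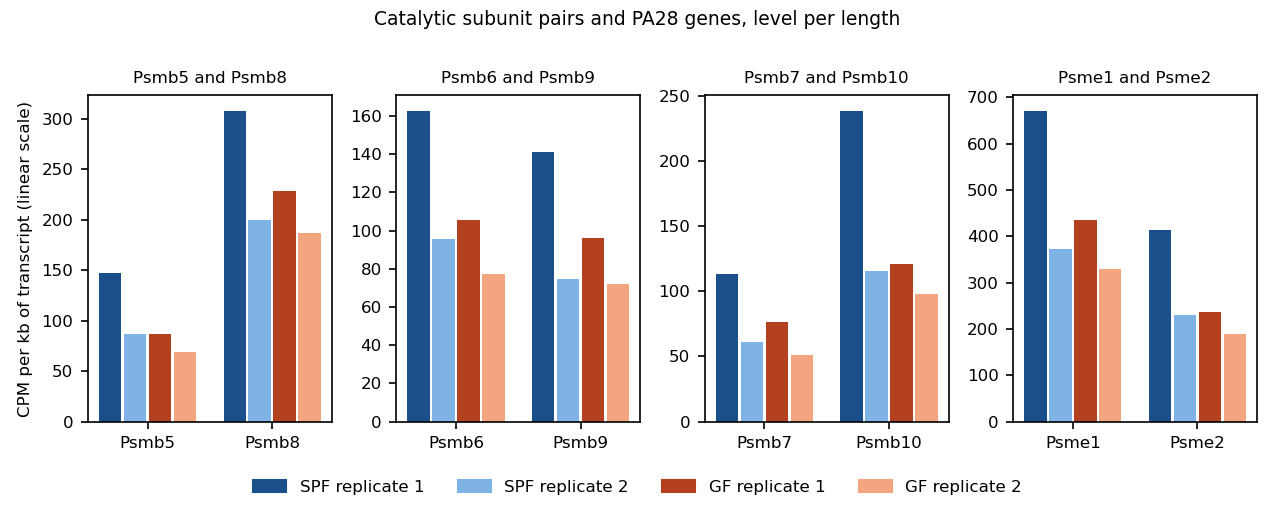
Level per length (CPM per kb of transcript, linear axes from 0) of each constitutive catalytic gene beside its immunoproteasome counterpart, and of Psme1 and Psme2; 1 bar per library, SPF in blue and GF in red, with a separate scale in each panel. SPF replicate 1 is the tallest bar for all 8 genes, and Psmb8 and Psmb10 stand above Psmb5 and Psmb7 in every library.

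Promoter sequences were at hand for 42 of the 50 genes, as RefSeq windows on GRCm38.p6 from 250 bases before to 50 after the start site. The windows of 4 catalytic genes and of Psmd4, which holds the most kinds of motif, are shown as examples. Psmb6 and Psmb11 also have windows, which are not printed. The part of promoter sequence in the shared order of the libraries was not tested. Each line gives the 250 bases before the start on the strand of the gene, 5′ to 3′. Capitals mark the motifs searched on both strands: the antioxidant response element core (TGACNNNGC), bound by factors of the NRF family, the CCAAT box (CCAAT), the interferon-gamma activated site (TTCNNNGAA), an interferon response core (GAAA repeated after any 2 bases) and an ETS core (CCGGAAG).
Psmb5: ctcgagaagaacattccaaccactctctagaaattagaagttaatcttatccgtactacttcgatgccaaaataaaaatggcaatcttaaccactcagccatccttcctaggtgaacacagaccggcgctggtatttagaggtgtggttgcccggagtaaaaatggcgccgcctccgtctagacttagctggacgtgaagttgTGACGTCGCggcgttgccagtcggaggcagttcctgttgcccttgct
Psmb8: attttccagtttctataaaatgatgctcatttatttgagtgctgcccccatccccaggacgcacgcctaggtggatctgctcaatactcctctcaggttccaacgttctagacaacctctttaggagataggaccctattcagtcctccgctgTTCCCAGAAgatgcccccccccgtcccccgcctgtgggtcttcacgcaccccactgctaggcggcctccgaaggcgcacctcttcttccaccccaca
Psmb9: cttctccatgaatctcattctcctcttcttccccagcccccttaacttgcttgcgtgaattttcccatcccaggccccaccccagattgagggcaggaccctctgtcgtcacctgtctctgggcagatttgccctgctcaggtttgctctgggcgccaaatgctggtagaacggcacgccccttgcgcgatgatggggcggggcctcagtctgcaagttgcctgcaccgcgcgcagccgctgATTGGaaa
Psmb10: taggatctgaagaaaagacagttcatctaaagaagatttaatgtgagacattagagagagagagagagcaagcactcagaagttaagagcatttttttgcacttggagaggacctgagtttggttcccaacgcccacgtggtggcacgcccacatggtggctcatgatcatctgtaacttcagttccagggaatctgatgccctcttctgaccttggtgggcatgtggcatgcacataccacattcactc
Psmd4: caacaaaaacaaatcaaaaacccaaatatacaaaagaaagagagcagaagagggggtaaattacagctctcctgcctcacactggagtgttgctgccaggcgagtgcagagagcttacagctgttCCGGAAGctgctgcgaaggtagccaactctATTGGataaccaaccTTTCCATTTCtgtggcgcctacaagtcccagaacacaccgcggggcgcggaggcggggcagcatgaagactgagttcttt
The Psmb5 line is chr14:54617996-54618245 on the minus strand, with the antioxidant response core 47 bases before the start. Psmb8 is chr17:34197945-34198194 on the plus strand, with an interferon-gamma activated site 97 bases before it. Psmb9 is chr17:34187331-34187580 on the minus strand, with a CCAAT box on the other strand 8 bases before the start. Psmb10 is chr8:105938393-105938642 on the minus strand, with no match in this window, and Psmd4 is chr3:95042615-95042864, also on the minus strand. These distances count from the RefSeq start, whereas the gene positions given above came from GENCODE, which can place the start elsewhere. The Psmb8 and Psmb9 lines lie wholly inside the GENCODE genes, and those of Psmb5 and Psmb10 overlap them in part.

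Over the whole windows, the ETS core stood in 16 of 45 windows of these genes (35.6%), against 8.86% of all 32851 promoter windows. These 16 windows belong to 15 genes, among them Psmc3ip. The 32851 windows were not limited to tested genes or to a like GC content. The antioxidant response core stood in 6 (13.3%, against 12.4%), in the windows of Psmb5, Psmb6, Psmc6, Psmd9, Psmd12 and Psme4. The CCAAT box stood in 15 (33.3%, against 37.4%), the interferon-gamma activated site in 3 (6.67%, against 8.30%) and the interferon response core in 5 (11.1%, against 3.44%). Matches of different motifs overlapped in 0 cases. A match is a string of letters and not a measured binding site. The Psmb9 window shares 275 of its 300 bases with that of Tap1, a peptide transporter gene that is read in the other direction. Tap1 measured 287 and 335 CPM in SPF and 426 and 402 CPM in GF, a log2 fold change of 0.41 (SE 0.21), so that its groups did not overlap, whereas those of Psmb9 did. Exons of Tap1 cover 5.79% of those of Psmb9 on the opposite strand, and reads there cannot be assigned.

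Genes of the cap differed less between libraries than those of the core. The median log2 difference of SPF replicate 2 minus 1 was -0.37 over 17 tested cap genes and -0.76 over 17 tested core genes, and that of GF replicate 2 minus 1 was -0.21 and -0.44. The cap genes also had longer transcripts, with a median of 1591 nt against 1165 nt. Their median log2 fold change (GF over SPF) was -0.25, against -0.43 for the core. With the trend on length removed these medians were -0.093 and -0.128. The part of length in the difference between cap and core was not tested. The 6 ATPase genes, whose ring unfolds the substrate, all had lower fitted values in GF, within a range of -0.33 to -0.28. Psmc3 had the highest level per length among them (83.3 CPM per kb) and measured 158 and 142 CPM in SPF and 130.3 and 115 CPM in GF, or -0.29 (SE 0.20). Psmc6 measured 116 and 89.1 CPM in SPF and 83.3 and 79.4 CPM in GF, or -0.33 (SE 0.22). The groups did not overlap for these 2 genes. Psmc4 had the smallest difference, -0.28 (SE 0.24), with 121 and 90.4 CPM in SPF and 92.5 and 81.6 CPM in GF. The median of the 6 was -0.09 without SPF replicate 1.

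Of the 11 non-ATPase cap genes, which bind ubiquitin chains and hold the lid, 10 had lower fitted values in GF, with a median of -0.19. Psmd14, the gene of the deubiquitinase of the lid, was the lowest at -0.36 (SE 0.28), with 123 and 82.6 CPM in SPF and 88.9 and 71.6 CPM in GF. Psmd3, a lid subunit gene, was the highest at 0.10 (SE 0.22), with 124 and 106 CPM in SPF and 134 and 112 CPM in GF. Psmd11, another lid gene, measured 78.7 and 83.5 CPM in SPF and 61.3 and 70.9 CPM in GF, or -0.30 (SE 0.20). Its groups did not overlap, and SPF replicate 1 was not the highest library. Psmd8 had the highest level per length of the class, 110.1 CPM per kb, with 209 and 142 CPM in SPF and 186 and 135 CPM in GF (-0.13, SE 0.29). Psmd1 and Psmd2, which encode the largest scaffold subunits and were chosen after their values were seen, had the smallest spread of the class over the 4 libraries. Psmd1 measured 84.9 and 91.9 CPM in SPF and 79.7 and 85.2 CPM in GF, and Psmd2 193 and 226 CPM in SPF and 209 and 204 CPM in GF. Their log2 fold changes were -0.10 (SE 0.20) and -0.02 (SE 0.21). Leaving out SPF replicate 1 gave a class median of -0.04, with 0.18 for Psmd8, -0.04 for Psmd14, -0.15 for Psmd1 and -0.13 for Psmd2. Without GF replicate 2 Psmd8 had 0.08, and Psmd3 had -0.02 without SPF replicate 2 and -0.03 without GF replicate 1. Without SPF replicate 2 Psmd2 had 0.09.

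The 7 assembly chaperone genes had the lowest class median, -0.52, and all 7 had lower fitted values in GF. They were low in abundance, between 11.8 and 39.9 CPM per kb. Psmg3, a helper of alpha ring assembly, measured 23.4 and 14.9 CPM in SPF and 13.8 and 9.88 CPM in GF, or -0.69 (SE 0.35). Psmd5, a chaperone of the cap base, measured 73.9 and 63.7 CPM in SPF and 51.4 and 50.1 CPM in GF. Its log2 fold change was -0.44 (SE 0.20, adjusted p = 0.86), and its unadjusted p of 0.079 was the smallest of all proteasome genes. The groups did not overlap for Psmg3 and Psmd5, and the 2 GF values of Psmd5 nearly coincided. Psmg2, which pairs with Psmg1 in alpha ring assembly, had the highest level per length of the class and measured 70.9 and 36.5 CPM in SPF and 47.7 and 32.9 CPM in GF (-0.41, SE 0.39). Psmd9, also a base chaperone, had the smallest difference at -0.20 (SE 0.34), with 39.8 and 25.7 CPM in SPF and 34.4 and 22.7 CPM in GF. With SPF replicate 1 left out, the class median was 0.02, with 0.15 for Psmg2 and for Psmd9, while Psmd5 had -0.33 and Psmg3 -0.33. Without GF replicate 2 Psmd9 had 0.06.

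The activators shared no direction: 3 of 5 had lower and 2 had higher fitted values in GF, with a median of -0.03. Psme1 and Psme2 encode the subunits of PA28, the interferon-induced ring that opens the core. Psme1 had the highest level per length of all 50 genes, a mean of 452 CPM per kb, and Psme2 followed with 267. Psme1 measured 477 and 265 CPM in SPF and 309.5 and 235 CPM in GF, or -0.45 (SE 0.35). Psme2 measured 363 and 202 CPM in SPF and 208 and 166 CPM in GF, or -0.59 (SE 0.34). Both followed the library order of the core genes. Their ratio per length, chosen after its values were seen, was 1.62 and 1.63 in SPF and 1.83 and 1.75 in GF, a log2 difference of 0.14 (pooled SD 0.035). It did not overlap between groups with the length trend removed either (1.54 and 1.66 against 1.84 and 1.80). Psme1 had 0.04 and Psme2 -0.11 when SPF replicate 1 was left out.

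Psme3, the gene of the nuclear PA28 ring, measured 188 and 182 CPM in SPF and 175 and 186 CPM in GF, or -0.03 (SE 0.19), the tightest of the activators. Without GF replicate 1 it had 0.01. Psme4, the gene of the large activator PA200, ran against the core: it measured 87.4 and 122 CPM in SPF and 119 and 136 CPM in GF, or 0.29 (SE 0.25), with SPF replicate 1 lowest. Leaving out SPF replicate 1 gave 0.07. Psme4 has the longest transcript of the 48 genes, 6491 nt, and with each library's trend on transcript length removed it had 0.02. Psme2b, a gene of 1 annotated exon related to Psme2, measured 4.19 and 18.2 CPM in SPF and 7.58 and 20.2 CPM in GF, or 0.31 (SE 0.79). Its value turned to -0.39 without SPF replicate 1 and to -0.57 without GF replicate 2, and was 1.72 without SPF replicate 2. Reads may be shared with Psme2, and 4.90% of its exon overlaps that of 9930111J21Rik1, which measured 5.50 and 103 CPM in SPF and 42.8 and 127 CPM in GF. Psmf1, which encodes a proteasome inhibitor protein, measured 51.4 and 49.7 CPM in SPF and 59.8 and 49.2 CPM in GF, or 0.11 (SE 0.21), and -0.04 without GF replicate 1.

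Psmb11, the catalytic gene of the thymus-specific proteasome, had 1, 1, 0 and 1 counts, and Psma8, the alpha subunit gene of male germ cells, 1, 1, 0 and 2. Both were under the limit of 3 counts that a count of 0 allows, 0.205 to 0.262 CPM per library, and were not tested. Psmc3ip encodes a partner of meiotic recombination proteins and is named for its binding to Psmc3. It measured 3.76 and 3.04 CPM in SPF and 1.71 and 1.503 CPM in GF, a log2 fold change of -1.07 (SE 0.40) with edgeR adjusted p = 0.86 and an unadjusted p of 0.041. It had 43 counts in each SPF library and 25 and 21 in the GF libraries, and 21.2% of its exons overlap those of Mlx on the opposite strand. Mlx measured 109 and 88.0 CPM in SPF and 89.1 and 78.8 CPM in GF.

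The differences followed transcript length. The tested genes had a median length of 1367 nt (median over basic protein-coding transcripts), against 2615 nt for all tested genes. Over the 11 of them shorter than 1000 nt the median log2 fold change was -0.50, against -0.35 over 1088 tested genes of that length. Between 1000 and 1500 nt it was -0.37 for 16 genes, against -0.25 over all. Between 1500 and 2000 nt it was -0.30 for 10 genes, against -0.12, and between 2000 and 4000 nt -0.10 for 9 genes, against 0.02. In these bins, from short to long, 10 of 11, 16 of 16, 10 of 10 and 7 of 9 genes had lower fitted values in GF. Over all tested genes of the same lengths the shares were 77.3%, 75.1%, 64.2% and 47.7%. Above 4000 nt 1 of 2 was lower, against 23.8%. Spearman's rho of log2 fold change with length was 0.56 across the 48 genes and 0.43 across 11194 tested genes. Genes are not independent replicates and share these libraries. The difference of replicate 2 minus 1 also followed length across the 48 genes, with a rho of 0.64 in SPF and 0.53 in GF.

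With each library's trend on length removed, the median over the 48 genes was -0.13, and 40 had lower fitted values in GF, against 49.7% of all tested genes. The GF libraries were then both lower than either SPF library for 22 genes, against 20.6% of all genes, and both higher for 1, Psmd3, also against 20.6%. All 6 cap ATPase genes were among the 22, with a class median of -0.16. The largest proteasome difference in that setting was Psmd5 at -0.62, a gene of 4397 nt. Psma1 had 0.02 and Psmd8 0.05 in that setting. No member passed edgeR's quasi-likelihood test there.

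**Figure D3:**
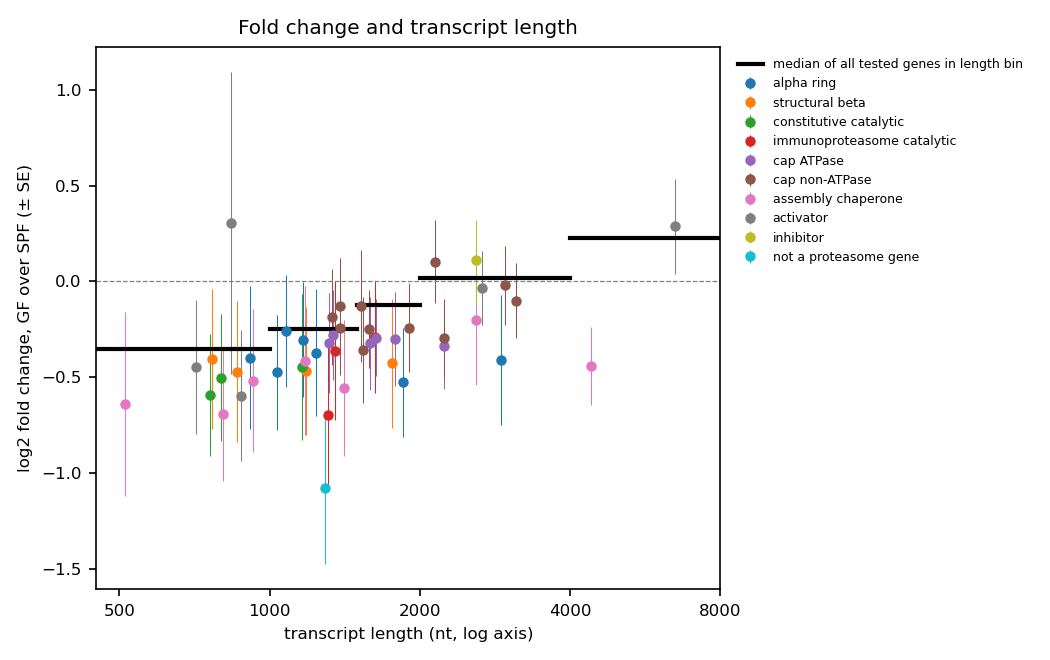
Log2 fold change (GF over SPF, with its SE as bars) of each of the 48 tested genes against transcript length on a log axis, coloured by class; black lines give the median over all tested genes in each of 5 length bins, the first of which also holds genes too short for the axis. The black lines climb from -0.35 for the shortest genes to 0.23 for the longest, and 41 of 48 members lie below the line of their bin.

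**Figure D4:**
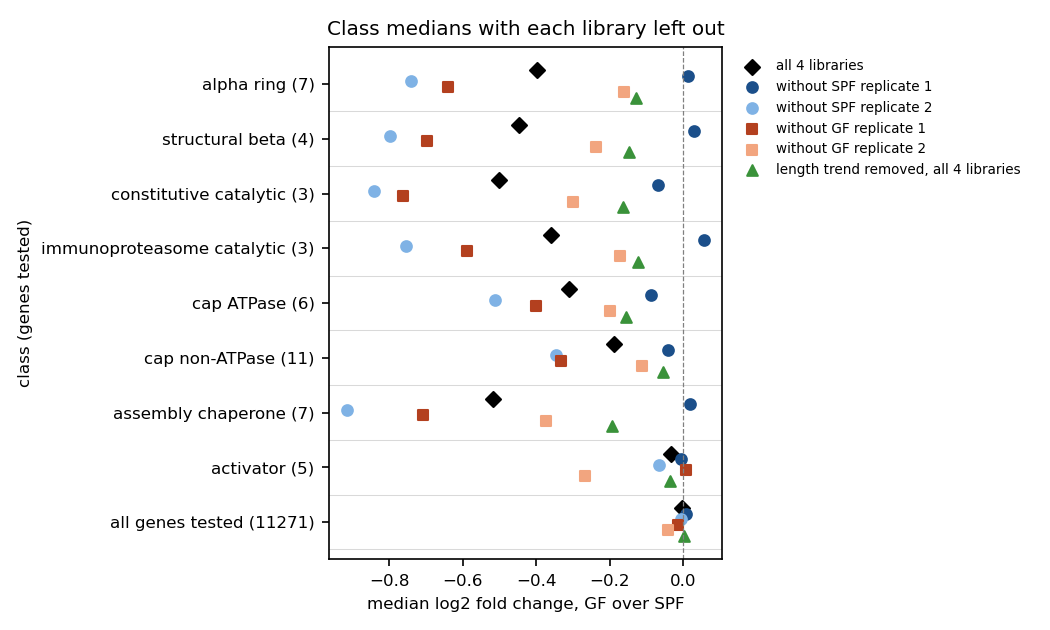
Median log2 fold change (GF over SPF) of each class over the tested genes, the number of which stands in brackets, with all 4 libraries (diamonds), with each library left out, and with the length trend removed (triangles). Without SPF replicate 1 every class shown lies between -0.09 and 0.06.

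Genes that work beside the proteasome were examined in 5 lists, and 0 genes in either direction passed edgeR's quasi-likelihood test in any of them, where 0 of all tested genes did. With each library left out in turn, Akirin2 ranged from -0.87 to -0.18 and Shfm1 from -1.04 to -0.03. Nlrc5 ranged from 0.15 to 1.10 and Stat2 from 0.06 to 1.02. The transcripts of Akirin2 and Shfm1 are short (1397 and 1472 nt), and those of Nlrc5 and Stat2 are long (5748 and 4395 nt). With the trend on length removed, Akirin2 had -0.33, Shfm1 -0.39, Nlrc5 0.34 and Stat2 0.33. Of 12 tested partners not named Psm, 8 had lower fitted values in GF, against 50.3% of all tested genes, with a median of -0.22. Akirin2, which brings proteasomes into the nucleus, measured 85.7 and 53.4 CPM in SPF and 50.4 and 43.9 CPM in GF (-0.56, SE 0.29). Shfm1, the gene of a small lid subunit, measured 124 and 61.6 CPM in SPF and 65.4 and 55.0 CPM in GF (-0.62, SE 0.37), and Txnl1, a thioredoxin bound to the cap, 86.8 and 58.1 against 56.7 and 50.5 CPM (-0.43, SE 0.27). Groups did not overlap for Akirin2 and Txnl1. In this list the GF libraries were both lower for 3 of 12 genes and both higher for 0. Over all tested genes these shares were 16.4% and 16.8%. With SPF replicate 1 left out, Akirin2 had -0.18, Shfm1 -0.03 and Txnl1 -0.12.

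Of 18 ubiquitin and shuttle genes 13 had lower fitted values in GF, against 50.3% of all tested genes, with a median of -0.15. Rps27a, a ubiquitin and ribosomal protein fusion gene, measured 1072 and 611 CPM in SPF and 656 and 532 CPM in GF (-0.50, SE 0.34). Nsfl1c, a cofactor of the unfoldase VCP, measured 102 and 81.4 CPM in SPF and 73.0 and 64.8 CPM in GF (-0.41, SE 0.22), and the shuttle gene Ubqln1 139.6 and 139.95 against 111 and 121 CPM (-0.27, SE 0.19). For Nsfl1c and Ubqln1 the GF libraries were both lower than either SPF library. That was so for 4 of the 18 genes, against 16.4% of all tested genes. Both were higher for 2, against 16.8%. With SPF replicate 1 left out, Rps27a had -0.04 and Nsfl1c -0.24.

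Of 14 transcription control genes 5 had lower and 9 higher fitted values in GF, with a median of 0.07. Over all tested genes 50.3% were lower. Mafk, a partner of NRF factors, measured 56.3 and 66.8 CPM in SPF and 71.8 and 81.4 CPM in GF (0.32, SE 0.21), and Foxo4 50.8 and 64.6 against 75.2 and 68.6 CPM (0.32, SE 0.22). Leaving out SPF replicate 1 gave 0.20 for Mafk and 0.16 for Foxo4. Nfya, of the factor that binds CCAAT boxes, measured 86.2 and 91.8 CPM in SPF and 52.8 and 85.7 CPM in GF (-0.36, SE 0.29), and was -0.06 without GF replicate 1. The groups did not overlap for Mafk, Foxo4 and Nfya. In this list the GF libraries were both lower for 1 of 14 genes and both higher for 4. Over all tested genes these shares were 16.4% and 16.8%. Of 12 interferon regulators 6 were lower and 6 higher. The GF libraries were both lower for 3 of these 12 and both higher for 1, Ifngr2. Nlrc5, the transactivator of class I genes, measured 192 and 371 CPM in SPF and 341 and 481 CPM in GF (0.55, SE 0.39), and was 0.15 without SPF replicate 1. Stat2 measured 45.2 and 88.0 CPM in SPF and 74.5 and 109 CPM in GF (0.46, SE 0.39), and was 0.06 without SPF replicate 1 and 0.16 without GF replicate 2. Ifngr2, near the detection limit, measured 0.786 and 0.424 CPM in SPF and 1.71 and 0.859 CPM in GF (1.10, SE 0.64), and was 0.51 without GF replicate 1.

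Class I peptide loading genes, which act after the proteasome has cut, had 8 lower and 8 higher of 16 tested, with a median of -0.08. Tap2, which pairs with Tap1, measured 291 and 268 CPM in SPF and 340.2 and 347 CPM in GF (0.30, SE 0.20). Calr, the chaperone calreticulin, measured 490.0 and 410.5 CPM in SPF and 332 and 353 CPM in GF (-0.39, SE 0.22), and had -0.26 without SPF replicate 1. For Tap2 and Calr the groups did not overlap, in opposite directions. In this list the GF libraries were both lower for 5 of 16 genes and both higher for 3. Over all tested genes these shares were 16.4% and 16.8%. With all 4 libraries the transporter genes stood higher in both GF libraries. The immunoproteasome genes beside them in the MHC, Psmb8 and Psmb9, had lower fitted values and overlapping groups. That contrast in sign rested on SPF replicate 1: without it Psmb8 had 0.06 and Psmb9 0.17. With each library left out in turn, Tap1 ranged from 0.31 to 0.52 and Tap2 from 0.23 to 0.36.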

How the data were processed

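RNA of sorted gBT-I cells (1 µg per library) was sequenced after TruSeq preparation, which does not mark strand. The deposited counts are raw whole numbers of reads for each gene in each of 4 libraries. According to the submitters' processing notes, the authors used CASAVA, TopHat, Picard, featureCounts, Subread and edgeR with mm10, with versions and settings not given in the sources used here. GF and SPF were compared by the quasi-likelihood F test of edgeR 4.0.16 in R 4.3.3 (TMM scaling, filterByExpr, no covariates, Benjamini-Hochberg over 11271 genes, threshold 0.05). Dividing a log2 fold change by the root of its F gave its standard error. Positions and lengths came from GENCODE M21 (GRCm38, the assembly of mm10), which gave a length for 99.3% of tested genes. Alternatives were other scalings, no filter, DESeq2 1.42.0, the replicate number as a block, a lowess trend (span 0.3) of log2 CPM on transcript length removed from each library, and each library left out. The script was tested on simulated counts. Named genes are the catalytic subunits, activators and inhibitor, and in each other class the extremes of fold change, the 2 smallest p and the highest level per length; in each list of other genes they are the 3 with the smallest p. The members and lists were chosen with earlier results of these data known.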

Additional observations from a re-analysis of the deposited data

How the results depend on the processing

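Psmb11, Psma8 and Ifngr2 had few counts at a depth of at least 11544960 counts per library, and 2 libraries per group limited all tests. Low depth and absence of the transcript were not told apart for these genes. Other scalings, the absence of a low-count filter and DESeq2 left the median fold change of the tested members between -0.36 and -0.34 and the number lower in GF at 44 to 46. The number of genes called was 9 by DESeq2, 1206 with the replicate block and 770 with the length trend removed and the replicate block, against 0, and it ranged from 0 to 1327 with a library left out. Of the 48 tested members the block fit called 4, Psmb5, Psme2, Psmg3 and Psmb10, against 1206 of all 11271 tested genes. The block with length called 1 of the 48, Psmd5, against 770 of 11271. In neither fit was the share of members called above that of all tested genes. With the block the median of members was -0.32, and edgeR also called 5 genes of the other lists, with Akirin2 and Shfm1 lower and Nlrc5, Stat2 and Lnpep higher in GF, and with length Tap1, higher. The replicate numbers pair no samples by any label, and deviations of libraries numbered 1 from their group means correlated over genes with r = 0.71. With a library left out, the median of members ranged from -0.60 to -0.019, the number lower in GF from 27 to 45 and the log2 difference of the catalytic ratio from 0.04 to 0.16. With the length trend removed, with or without the block, that difference was -0.035, and 22 members in place of 9 had GF libraries that were both lower than either SPF library without the block. In that setting Psma1 turned to 0.016 and Psmd8 to 0.051, and with the block as well to 0.015 and 0.049. Of 47 genes named, 15 turned sign with a library left out, with ranges of -0.83 to 0.073 for Psmb7, -0.58 to 0.058 for Psmb8, -0.75 to 0.17 for Psmb9, -0.57 to 1.72 for Psme2b, -0.081 to 0.0080 for Psme3, -0.82 to 0.037 for Psme1, -0.039 to 0.24 for Psmf1, -0.51 to 0.043 for Psma1, -0.78 to 0.092 for Psmb3, -0.86 to 0.043 for Psmb2, -0.035 to 0.23 for Psmd3, -0.38 to 0.18 for Psmd8, -0.53 to 0.15 for Psmd9, -0.82 to 0.15 for Psmg2, -0.13 to 0.095 for Psmd2. Causes were not tested beyond these values.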
